A study of Mus musculus with 6 samples.

Results

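The genes described here are 45 genes of the cell division cycle, picked by name as genes of S phase, of mitosis and of the cyclin family, and they are 45 of the 38924 genes in each count table. They were read in 6 RNA-seq libraries of microglia, the resident macrophages of the brain, from untreated WT female C57BL/6 mice, with 3 mice at 5 weeks and 3 at 24 weeks and 1 library per mouse. These WT mice were the controls of a study of female Het mice with a model of Rett syndrome, whose libraries were not analysed here. The cells were pulled from the whole brain, after the meninges had been taken off, with magnetic beads that bind CD11b, a surface protein that microglia share with other macrophages, monocytes and neutrophils. The fraction is therefore enriched for microglia but not pure, and a bulk library cannot tell fewer cells of a type from less RNA per cell.

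A cell that enters division first makes D cyclins, which bind the kinases Cdk4 and Cdk6 and release E2F transcription factors from retinoblastoma proteins. E2F then drives the genes of DNA replication, and later the factors B-Myb and FoxM1, with the MuvB complex, drive the genes of mitosis. Microglia divide rapidly in the first weeks after birth and renew slowly in the adult, so in adult brain only a small part of them is in cycle at any time. Several members, among them the D cyclins, their kinases, Pcna and Cdkn1b, are also expressed by cells that are not dividing.

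Counts on genes ran from 23198065 to 46434788 per library at 5 weeks and from 10410625 to 13554336 at 24 weeks. Levels are given as normalized CPM, which are counts divided by the TMM-scaled library total, and the test is edgeR's quasi-likelihood test with Benjamini-Hochberg adjustment over all 16157 genes tested. A gene passed when its adjusted p was below 0.05. Fold changes are on the log2 scale with the sign of 24 weeks minus 5 weeks, so a positive value means more RNA in the older mice. The ages were run in separate sequencing lanes, so age and lane cannot be told apart. Itgam, which encodes CD11b, had 1490 to 1737 normalized CPM at 5 weeks and 1324 to 1445 at 24 weeks, without overlap. Xist, the RNA of the inactive X chromosome, had 31677 to 59021 counts in 5 libraries and 78 counts in 24-week replicate 3, although every mouse is described as female, and the Y-linked genes checked had 0 counts in every library. Without that library, 4 cell cycle genes were higher and 2 lower, against 5 and 2 with it, and Cdk6 was the call lost. Over all genes, that fit called 1971 higher and 1514 lower, against 2505 and 2141 with it.

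Between the ages the cell cycle genes moved in no single direction. Of the 45, 43 had enough counts to be tested, and the test called 5 of them higher at 24 weeks and 2 lower, while 36 did not pass. The 5 that rose were Mki67, Tk1, Cdk6, Cenpe and Kif23, and the 2 that fell were Stmn1 and Cdkn2c. These 7 are 16.3% of those tested. Over all genes tested 28.8% passed, 15.5% higher and 13.3% lower, so the share among cell cycle genes was below that background. Their median log2 fold change was 0.26, with 26 above 0 and 17 below, while the median of all genes tested was 0.00. In 16 of the 43 (37.2%) every library of 1 age was above every library of the other, against 45.1% of all genes tested. The split between higher and lower calls moved with the scaling. With DESeq2 size factors 4 were higher and 4 lower (2436 and 2174 over all genes). With total counts alone, which shifted the median of all genes to 0.10, 9 were higher and 2 lower (3229 and 1466 over all genes).

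**Figure D1:**
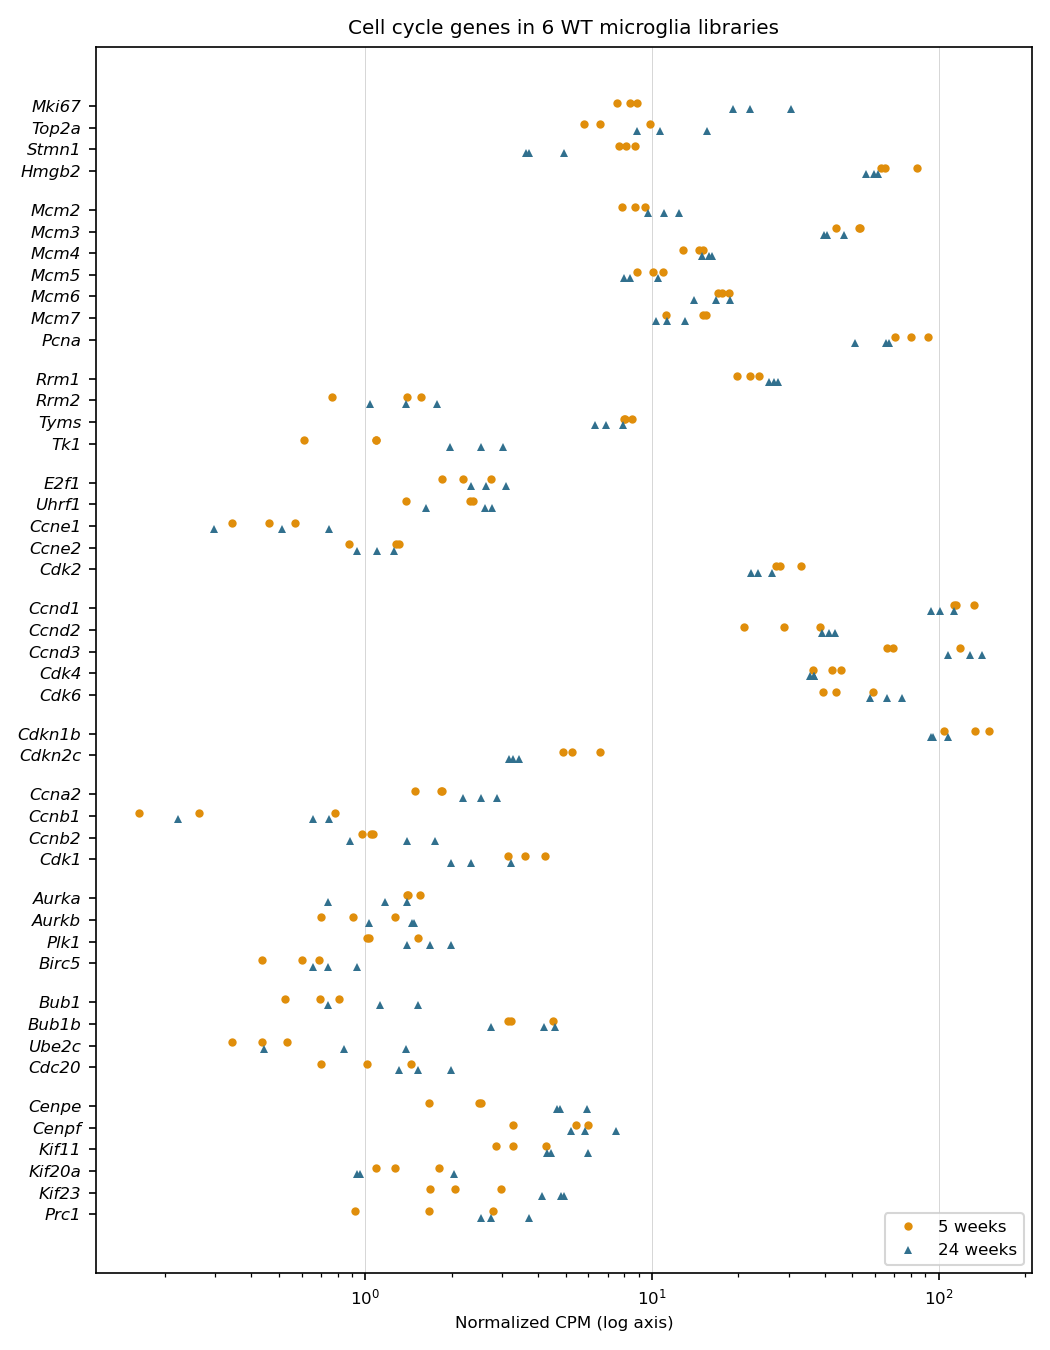
Normalized CPM (log axis) of the 45 cell cycle genes in each of the 6 libraries, with circles for 5 weeks, triangles for 24 weeks and gaps between roles. The levels span from under 1 normalized CPM for Ccnb1 and Ccne1 to over 100 for Ccnd1, Ccnd3 and Cdkn1b, and Mki67 and Cenpe are among the genes whose ages do not overlap.

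Many of these genes were close to the lower end of what the libraries could measure. Averaged over the 6 libraries, 24 of the 45 lay under 5 normalized CPM and 14 under 2, and 10 were above 25. Ccne1 and Ube2c had 4 to 23 counts per library and were not tested. Among the 28 tested members under 10 normalized CPM, 5 passed (17.9%, against 21.7% of all tested genes at that level). Among the 15 at or above 10, 2 passed (13.3%, against 33.8%).

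Promoters of such genes are known for a small set of sequence elements: the CHR (TTTGAA), which the MuvB complex binds, the CCAAT box, bound by NF-Y, and E2F sites. RefSeq promoters on GRCm38.p6, taken from 250 bases before to 50 after the transcript start, were found for 37 of the 45 genes and searched on both strands. The CHR letters occurred in 15 of the 37 (40.5%), against 20.2% of 27025 genes with a promoter. The mitotic genes here are the mitotic cyclins with Cdk1, the mitotic kinases with Birc5, the spindle checkpoint, and the kinetochore, spindle and cytokinesis genes. The CHR letters were in 11 of the 15 of these with a promoter and in 4 of the other 22 (Mki67, Top2a, Hmgb2 and Mcm2). CCAAT occurred in 30 of 37 (81.1%, against 41.1% of all), and any of 4 E2F forms (TTTCCCGC, TTTCGCGC, TTTGGCGC or TTTGCCGC) in 7 (18.9%, against 2.61%), of which 6 were outside the mitotic genes. The E2F genes are Mcm3, Mcm5, Mcm6, Mcm7, Uhrf1, Cdk2 and Cdk1. No motif overlaps another in the stretches printed.

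Stretches from 4 promoters are printed because these genes share the letters of the CHR and CCAAT box, while Mki67 and Kif23 passed the test between ages and Top2a and Cdk1 did not. Capitals mark the CHR, CCAAT and, in Cdk1, E2F letters on either strand, so TTCAAA and ATTGG are the same motifs on the other strand. For Mki67, Top2a and Cdk1 the last 160 bases before the start are shown, and for Kif23 29 bases around the start, all in the direction of transcription.
Mki67, chr7:135716380-135716539, minus strand: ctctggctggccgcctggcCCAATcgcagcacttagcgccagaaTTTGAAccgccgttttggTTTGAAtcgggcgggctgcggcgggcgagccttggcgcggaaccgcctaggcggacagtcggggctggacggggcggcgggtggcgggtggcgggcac
Top2a, chr11:99024190-99024349, minus strand: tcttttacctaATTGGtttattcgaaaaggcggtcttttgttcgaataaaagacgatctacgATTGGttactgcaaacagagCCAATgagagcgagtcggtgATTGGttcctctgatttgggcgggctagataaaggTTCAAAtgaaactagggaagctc
Cdk1, chr10:69352913-69353072, minus strand: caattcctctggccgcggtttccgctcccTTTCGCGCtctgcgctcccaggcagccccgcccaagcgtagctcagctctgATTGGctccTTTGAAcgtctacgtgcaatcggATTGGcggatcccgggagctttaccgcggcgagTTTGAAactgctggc
Kif23, chr9:61946785-61946813, minus strand: gccgctgATTGGcctgTTTGAAatgcgcc
The CHR letters did not part the genes that passed from those that did not. Of 14 tested members with them, 2 were higher and 0 lower, with a median log2 fold change of 0.45. Of 21 tested members without them, 3 were higher (Tk1, Cdk6 and Cenpe) and 1 lower (Cdkn2c), with a median of 0.18. None of the 7 members with E2F letters passed, and their median was -0.23.

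Mki67, which encodes the Ki-67 protein that coats mitotic chromosomes and is the most used marker of cycling cells, rose the most. It lies at chr7:135689784-135716361 on the minus strand of GRCm38 (ENSMUSG00000031004). Its levels were 8.85, 7.57 and 8.36 normalized CPM at 5 weeks and 30.7, 19.2 and 22.0 at 24 weeks, with means of 8.26 ± 0.642 in the younger and 23.9 ± 5.97 in the older mice (SD, n = 3 each). The lowest 24-week library was thus above every 5-week library. The rise was 2.90-fold (log2 fold change 1.53, SE 0.18, adjusted p = 0.00018), and it passed in all 15 alternative analyses, with log2 fold changes from 1.16 to 1.67.

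Top2a, the topoisomerase that untangles chromosomes before they part, is another marker of cycling cells, and its difference between ages did not pass. Its levels were 9.88, 6.61 and 5.78 normalized CPM at 5 weeks and 15.5, 8.87 and 10.7 at 24 weeks. The ages overlap, since 5-week replicate 1 lies above 24-week replicate 2. The log2 fold change was 0.66 (SE 0.25, adjusted p = 0.070), and it passed in 5 of 15 alternatives, among them the fit without 5-week replicate 1 (log2 fold change 0.91, adjusted p = 0.028). Per kilobase of transcript, the ratio of Mki67 to Top2a was 0.465, 0.595 and 0.751 at 5 weeks and 1.02, 1.12 and 1.07 at 24 weeks. With 3 libraries against 3 an exact two-sided permutation test cannot go below p = 0.10, so no test of this ratio is given. In the GENCODE annotation Top2a shares exon bases with a small RNA gene on its strand, Gm23451. Whether the gene models used for counting hold Gm23451 was not checked. If they do, read pairs that touch both were left out.

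Stmn1 encodes stathmin, which takes microtubules apart and is made in dividing cells and in immature neurons (chr4:134468320-134473843, plus strand, ENSMUSG00000028832). It fell from 8.75, 7.66 and 8.13 normalized CPM at 5 weeks to 3.72, 4.95 and 3.64 at 24 weeks, 1.99-fold, with no overlap between ages (log2 fold change -0.99, SE 0.19, adjusted p = 0.0033). The fall passed in all 14 alternatives in which Stmn1 was tested. It too shares exon bases with a small RNA gene on its strand, Gm23634. Hmgb2, a chromatin protein abundant in cycling cells, had 63.1 to 84.1 normalized CPM at 5 weeks and 55.9 to 61.6 at 24 weeks, with a log2 fold change of -0.26 that did not pass (adjusted p = 0.15). It passed in 1 of 15 alternatives, the fit without 5-week replicate 3 (-0.33, adjusted p = 0.045). That fit, also given below for Pcna, Ccnd3 and Cdkn1b, called more of all genes (3225 higher and 2817 lower, against 2505 and 2141).

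**Figure D2:**
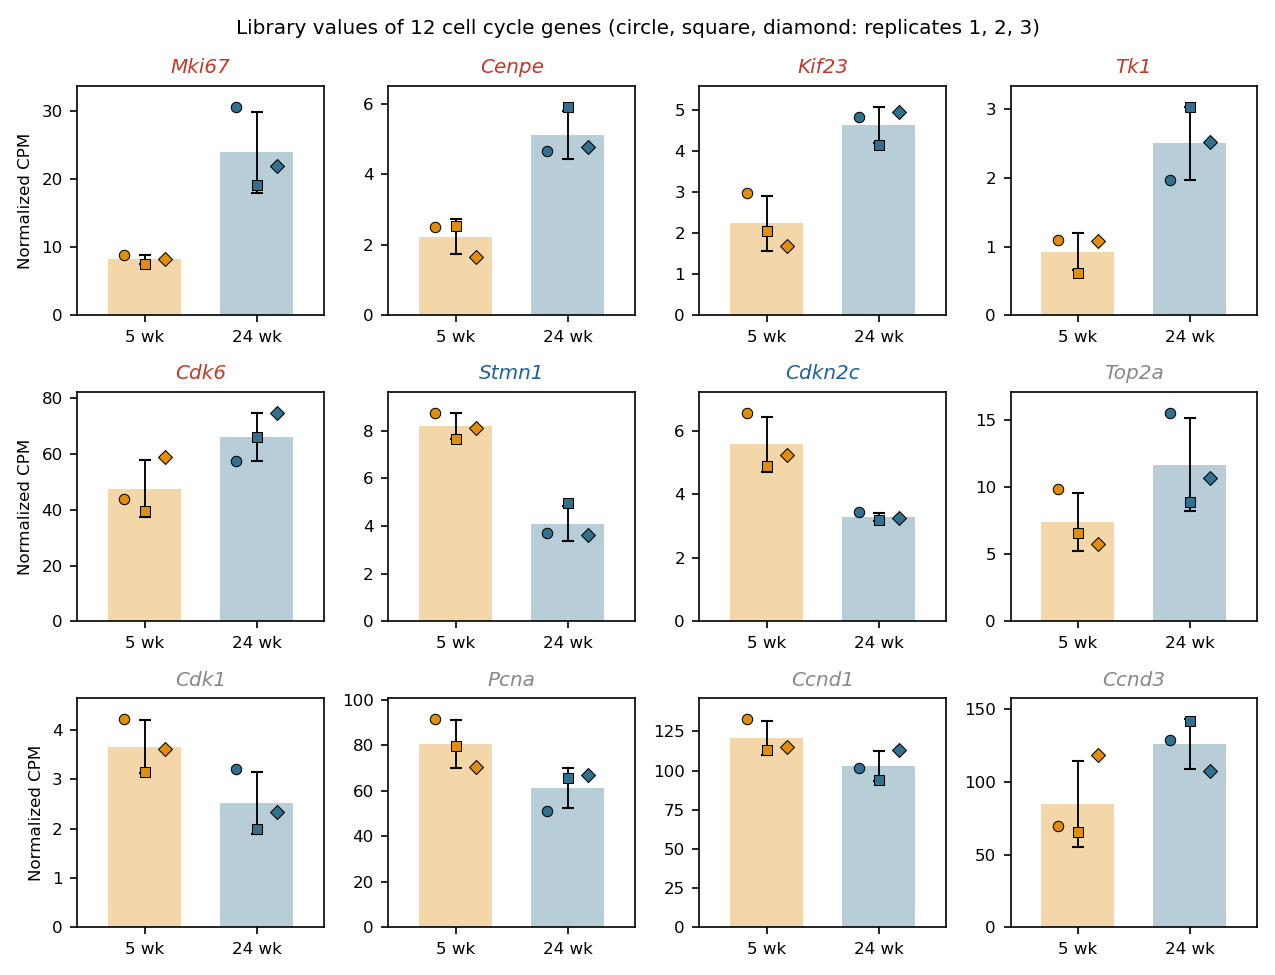
Normalized CPM of 12 cell cycle genes by age, where bars are means, error bars SD and points the 3 libraries (circle, square and diamond for replicates 1, 2 and 3). Red names passed higher at 24 weeks, blue names passed lower and grey names did not pass. Mki67 sits between 7.57 and 8.85 at 5 weeks and between 19.2 and 30.7 at 24 weeks, while Cdk6 and Ccnd3 overlap between ages.

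The genes of mitosis were among the faintest of the set, and few of them passed. The 18 are the mitotic cyclins with Cdk1, the mitotic kinases with Birc5, the spindle checkpoint, and the kinetochore, spindle and cytokinesis genes. Of the 17 tested, 2 rose, 0 fell and 15 did not pass, with a median log2 fold change of 0.44 (14 above 0 and 3 below). The 11.8% that passed was below the 28.8% of all genes tested and the 21.7% of those under 10 normalized CPM. In 4 of the 17 (23.5%) the ages did not overlap, against 45.1% of all genes tested. Summed over all 18, the mitotic genes gave 39.4, 31.1 and 28.0 normalized CPM at 5 weeks and 50.6, 40.9 and 42.0 at 24 weeks. These sums did not overlap between ages, although 5-week replicate 1 came close to 24-week replicate 2.

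Cenpe encodes a kinesin that carries chromosomes to the middle of the spindle (chr3:135212537-135273611, plus strand, ENSMUSG00000045328). It rose from 2.50, 2.54 and 1.66 normalized CPM at 5 weeks to 4.67, 5.91 and 4.77 in the older mice, 2.31-fold (log2 fold change 1.21, SE 0.24, adjusted p = 0.0041). Every 24-week library was above every 5-week library, and the rise passed in all 15 alternatives. Kif23 encodes the kinesin of the central spindle that is needed to pinch the daughter cells apart (chr9:61915905-61946774, minus strand, ENSMUSG00000032254). It rose from 2.97, 2.06 and 1.69 to 4.82, 4.14 and 4.95 normalized CPM, 2.07-fold (log2 fold change 1.05, SE 0.26, adjusted p = 0.011), again without overlap and in all 14 alternatives that tested it.

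The other kinetochore, spindle and cytokinesis genes did not pass. Prc1, which bundles the microtubules on which Kif23 works, had 2.78, 1.66 and 0.924 normalized CPM at 5 weeks and 3.72, 2.74 and 2.52 at 24 weeks (log2 fold change 0.76, adjusted p = 0.16). Its 5-week libraries were spread widely. It passed in 2 of 14 alternatives, among them the fit without 5-week replicate 1 (log2 fold change 1.25, adjusted p = 0.037). Kif11, the motor that pushes the spindle poles apart, had 2.86 to 4.28 at 5 weeks and 4.30 to 5.98 at 24 weeks (log2 fold change 0.50, adjusted p = 0.13). Cenpf, a kinetochore protein, gave a log2 fold change of 0.36 (adjusted p = 0.32), and Kif20a, a further kinesin of cytokinesis, one of -0.06 (adjusted p = 0.92).

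The mitotic cyclins and their kinase had values on both sides of 0, and none of the 4 passed. Cdk1, the kinase that starts mitosis, had 4.22, 3.15 and 3.60 normalized CPM at 5 weeks and 3.21, 2.0 and 2.34 at 24 weeks, and did not pass (log2 fold change -0.54 with an SE of 0.25, adjusted p = 0.13). Its cyclins had positive values: Ccna2 had 1.49 to 1.85 normalized CPM at 5 weeks and 2.19 to 2.88 at 24 weeks without overlap (log2 fold change 0.54, adjusted p = 0.13), and Ccnb2 had 0.970 to 1.06 and 0.887 to 1.75 (0.39, adjusted p = 0.41). Ccnb1, the main cyclin of mitotic entry, had 25, 6 and 7 counts at 5 weeks and 9, 3 and 8 at 24 weeks, so its log2 fold change of 0.42 has an SE of 0.67. At this depth a change of that size in Ccnb1 was not detectable.

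The mitotic kinases and the checkpoint genes were as faint. Aurka, Aurkb, Plk1 and Birc5 averaged between 0.575 and 1.69 normalized CPM at either age, and their log2 fold changes ran from -0.42 (Aurka) to 0.53 (Plk1), with adjusted p from 0.22 to 0.46. Aurkb and Birc5 belong to the chromosomal passenger complex, Aurka works at the spindle poles and Plk1 acts from mitotic entry to cytokinesis. Bub1, Bub1b and Cdc20, which hold and then release the spindle checkpoint, had log2 fold changes of 0.72, 0.07 and 0.61 and adjusted p from 0.18 to 0.85. Ube2c, an enzyme that tags the cyclins for breakdown, had 0.344, 0.438 and 0.531 normalized CPM at 5 weeks and 1.39, 0.444 and 0.841 at 24 weeks, from 6 to 23 counts a library.

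**Figure D3:**
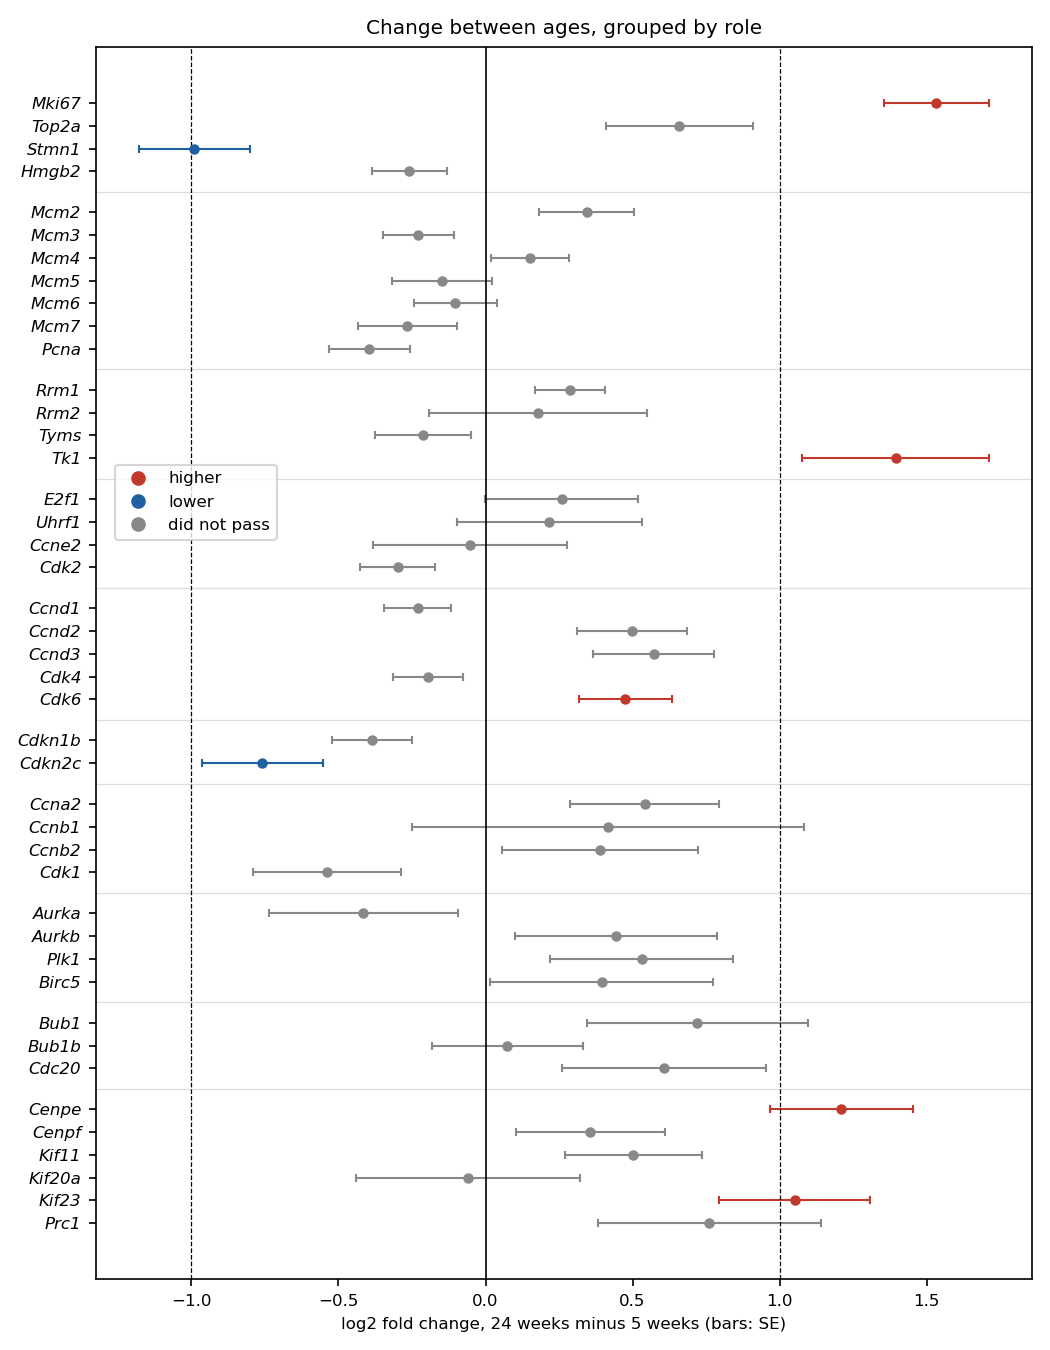
Log2 fold change (24 weeks minus 5 weeks, horizontal axis) with its SE for the 43 tested cell cycle genes, in blocks by role, with dashed lines at a 2-fold change. Mki67, Tk1, Cenpe and Kif23 lie above 1, Cdk6 passed at 0.47, Stmn1 (-0.99) and Cdkn2c (-0.76) passed below 0, and the replication genes lie close to 0.

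The DNA replication genes had fold changes near 0. Mcm2 to Mcm7 encode the ring-shaped helicase that opens DNA at the fork, and Pcna encodes the clamp that holds the polymerase. None of these 7 passed, and their log2 fold changes ran from -0.40 (Pcna) to 0.34 (Mcm2), with a median of -0.15. Their summed level was 213, 184 and 187 normalized CPM at 5 weeks and 169, 164 and 170 at 24 weeks, without overlap. Pcna had the lowest adjusted p of the group. It had 91.7, 79.9 and 70.3 normalized CPM at 5 weeks and 51.3, 65.5 and 67.2 at 24 weeks, with every 24-week value lower (log2 fold change -0.40, SE 0.14, adjusted p = 0.051), and it passed as lower in 5 of 15 alternatives, among them the fit without 5-week replicate 3 (-0.48, adjusted p = 0.013).

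The 6 helicase genes encode subunits used in equal number but were not at equal RNA levels. Per kilobase, Mcm3 was the highest of the 6 at 16.4 (mean normalized CPM per kilobase at 5 weeks) and Mcm2 the lowest at 2.57. The ratio of Mcm3 to Mcm2 was 6.22 to 6.71 at 5 weeks and 4.02 to 4.69 at 24 weeks. Mcm2 itself had 7.84 to 9.47 normalized CPM at 5 weeks and 9.68 to 12.4 at 24 weeks (log2 fold change 0.34, adjusted p = 0.13), and Mcm3 43.8 to 53.1 and 39.9 to 46.9 (log2 fold change -0.23, adjusted p = 0.18). For Mcm4, Mcm5, Mcm6 and Mcm7 the log2 fold changes were 0.15, -0.15, -0.10 and -0.27. The annotated bases of 2 microRNA genes, Mir25 and Mir93, overlap exon bases of Mcm7 on its strand. The ratio of Pcna to Mki67, again per kilobase, was 55.7 to 70.0 at 5 weeks and 11.1 to 22.6 at 24 weeks. These ranges had to part, since every 24-week library was higher in Mki67 and lower in Pcna.

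Of the 4 genes of nucleotide supply, 1 passed. Tk1, the cytosolic thymidine kinase (chr11:117815526-117826092, minus strand, ENSMUSG00000025574), rose from 1.09, 0.613 and 1.09 normalized CPM to 1.97, 3.03 and 2.52, 2.63-fold (log2 fold change 1.39, SE 0.32, adjusted p = 0.0081). The ages did not overlap, on 14 to 47 counts a library, and the rise passed in all 14 alternatives that tested it. Tyms, which makes thymidylate by the other route, had 7.97 to 8.52 normalized CPM at 5 weeks and 6.35 to 7.91 at 24 weeks (log2 fold change -0.21, adjusted p = 0.36). Of the subunits of ribonucleotide reductase, Rrm1 had 19.8 to 23.5 and 25.6 to 27.5 (log2 fold change 0.29, adjusted p = 0.091) and Rrm2, the subunit that is rich in S phase, had 0.762 to 1.56 and 1.03 to 1.78 (0.18, adjusted p = 0.75). Per kilobase the 2 subunits were at 5.44 and 0.566 at 5 weeks.

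The G1/S regulators did not pass. E2f1, an E2F that activates S phase genes, had a log2 fold change of 0.26 (adjusted p = 0.48), and Uhrf1, which keeps DNA methylation through replication, one of 0.22 (adjusted p = 0.64). Cdk2, the S phase kinase, had 27.9, 27.0 and 33.2 normalized CPM at 5 weeks and 23.5, 22.1 and 26.2 in the older libraries, without overlap (log2 fold change -0.30, SE 0.13, adjusted p = 0.10). Of its cyclins, Ccne2 had 0.878 to 1.31 normalized CPM over all libraries (log2 fold change -0.05, adjusted p = 0.92) and Ccne1 0.296 to 0.748.

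The D cyclins and their kinases were by contrast among the most abundant of the 45. Per kilobase Ccnd3 was at 40.1 at 5 weeks and 59.7 at 24 weeks (mean normalized CPM per kilobase), Ccnd1 at 32.2 and 27.5, and Ccnd2 at 4.65 and 6.54. Ccnd3 made up 45.1%, 46.1% and 62.3% of the 3 D cyclins at 5 weeks and 64.2%, 68.2% and 58.1% at 24 weeks, a range that overlaps because 5-week replicate 3 lies with the older libraries. In normalized CPM, Ccnd3 had 69.5, 65.8 and 119 at 5 weeks and 129, 142 and 108 at 24 weeks. Its log2 fold change of 0.57 (SE 0.21) did not pass (adjusted p = 0.058). It passed in 7 of 15 alternatives, and without 5-week replicate 3 the log2 fold change was 0.91 (adjusted p = 0.00031). Ccnd2 had 28.8, 38.5 and 20.9 against 43.3, 39.2 and 41.6 (log2 fold change 0.50, adjusted p = 0.067). It passed in 4 of 15 alternatives, among them the fit without 5-week replicate 2 (0.73, adjusted p = 0.0070). Ccnd1 had 133, 113 and 115 against 101, 93.9 and 113 (log2 fold change -0.23, adjusted p = 0.15).

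Cdk6 (chr5:3341485-3531008, plus strand, ENSMUSG00000040274) had 43.9, 39.6 and 59.1 normalized CPM at 5 weeks and 57.6, 66.3 and 74.8 at 24 weeks. It passed as higher, 1.39-fold (log2 fold change 0.47, SE 0.16, adjusted p = 0.043), although 5-week replicate 3 lies above 24-week replicate 1. It passed in 7 of 15 alternatives. It did not pass when any 1 library other than 5-week replicate 3 was left out (adjusted p 0.055 to 0.16), and once length and GC trends were taken out its log2 fold change was 0.07 (adjusted p = 0.78). Its coding transcript, 11525 bases, is the longest of the 45. Cdk4, the other partner of the D cyclins, had 36.3 to 45.8 normalized CPM at 5 weeks and 35.6 to 36.8 at 24 weeks (log2 fold change -0.20, adjusted p = 0.24). The ratio of Cdk4 to Cdk6 per kilobase was 5.45, 5.15 and 4.36 at 5 weeks and 3.57, 3.02 and 2.76 at 24 weeks.

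Of the 2 CDK inhibitors, Cdkn2c fell. It encodes p18, an inhibitor of Cdk4 and Cdk6 (chr4:109660876-109667189, minus strand, ENSMUSG00000028551), and had 6.56, 4.90 and 5.24 normalized CPM at 5 weeks and 3.43, 3.18 and 3.27 at 24 weeks. The fall was 1.69-fold without overlap (log2 fold change -0.76, SE 0.20, adjusted p = 0.018). It passed in 11 of 14 alternatives and was lost without 5-week replicate 1, 24-week replicate 1 or 24-week replicate 2 (adjusted p = 0.078, 0.053 and 0.064). Cdkn1b, or p27, which holds resting cells out of the cycle, was far more abundant. It had 150, 134 and 105 normalized CPM at 5 weeks and 94.0, 96.0 and 108 in the older mice (log2 fold change -0.39, SE 0.14, adjusted p = 0.055). It passed as lower in 6 of 15 alternatives, among them the fit without 5-week replicate 3 (-0.51, adjusted p = 0.0019).

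**Figure D4:**
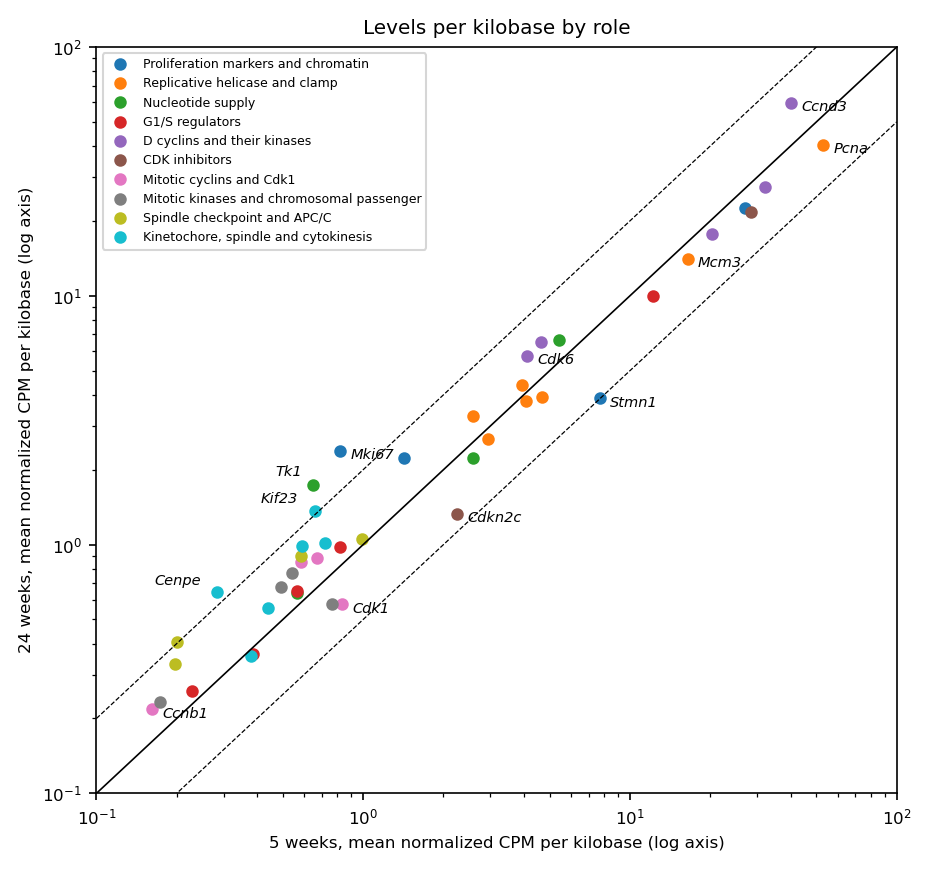
Mean level per kilobase of the longest coding transcript at 5 weeks (horizontal) and 24 weeks (vertical) for the 45 cell cycle genes, both on log axes and coloured by role, with dashed lines at a 2-fold difference. Ccnd1, Ccnd3, Cdk4, Pcna, Cdkn1b and Hmgb2 lie at the upper right and Ccnd2 nearer the middle. Mitotic genes lie at the lower left, where Ccnb1 is lowest at 0.161 and 0.218. Mki67, Tk1, Cenpe and Kif23 lie on or above the upper dashed line.

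Further cell cycle genes that are not among the 45 were read in 4 lists of 127 genes in all, of which 120 were tested. Of these, 14 were higher and 7 lower (17.5% passed, against 28.8% of all genes), with a median log2 fold change of 0.17. In the list of origin licensing and fork genes, 3 of 39 tested were higher and 3 lower, with a median of -0.01. Timeless and Clspn, which steady the fork, and Pole, a polymerase of the leading strand, had log2 fold changes of 0.87, 1.0 and 0.73 (adjusted p = 0.0092, 0.026 and 0.038). Fen1, which trims Okazaki fragments, Gins4 of the helicase and Rfc2 of the clamp loader had -0.69, -0.67 and -0.41 (adjusted p = 0.0079, 0.011 and 0.017).

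In the list of retinoblastoma, E2F and MuvB genes, 6 of 19 were higher (31.6%, against 15.5% of all genes) and 0 lower (against 13.3%), with a median of 0.23. The share that passed in either direction was close to the 28.8% of all genes, and E2f8, 1 of the 6, lay at the threshold (adjusted p = 0.04996). Rb1, the retinoblastoma protein that restrains E2F, went from 81.7–88.5 to 122–123 normalized CPM (log2 fold change 0.53, adjusted p = 0.0023). Foxm1, which drives mitotic genes, went from 1.47–2.29 to 3.74–5.32 (log2 fold change 1.33, adjusted p = 0.0033), and E2f7, a repressor of E2F targets, from 0.350–0.500 to 1.26–1.61 (1.67, adjusted p = 0.0048). In the list of CDK inhibitors and checkpoint regulators, 2 of 18 tested were higher and 1 lower, with a median of 0.24. The share that passed there was 16.7%, below the 28.8% of all genes. Cdkn1a, the inhibitor p21, rose from 15.1–23.7 to 32.7–44.7 normalized CPM (log2 fold change 1.01, adjusted p = 0.0018), Cdc25b, a phosphatase that activates CDKs, had 0.79 (adjusted p = 0.023), and Cks2, a small CDK-binding protein, fell by 1.20 on the log2 scale (adjusted p = 0.0054).

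Among 44 tested further genes of mitosis and cytokinesis, 3 were higher and 3 lower (13.6% passed, against 28.8% of all genes). Their median was 0.49, above the median of all genes. Ckap2l had 3.25 to 4.78 normalized CPM at 5 weeks and 9.85, 8.58 and 18.6 at 24 weeks (log2 fold change 1.56, adjusted p = 0.0025). The spindle proteins Nusap1 and Kif18b had 1.16 and 1.30 (adjusted p = 0.014 and 0.032). Bub3 of the spindle checkpoint, Ncaph of condensin and the kinesin Kif2c had -0.51, -0.40 and -0.94 (adjusted p = 0.0070, 0.027 and 0.039).

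**Figure D5:**
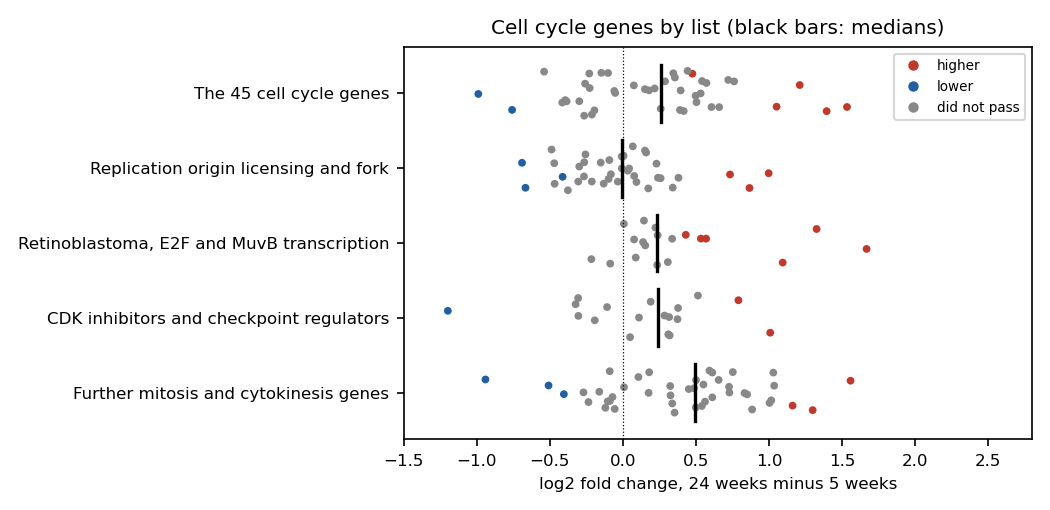
Log2 fold change of every tested gene (points, spread vertically only for legibility) in the set of 45 and in 4 lists of further cell cycle genes, with black bars at the medians. Red points passed higher, blue points lower and grey points did not pass, and the medians run from -0.01 for replication origin and fork genes to 0.49 for further mitosis genes.

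At 5 weeks 1 library had the most cell cycle RNA across many genes. Replicate 1 of that age was the highest of the 3 in 29 of the 45 genes, against 6 and 10 for replicates 2 and 3. At 24 weeks the counts were closer to even, with 19, 11 and 15 for replicates 1, 2 and 3. Replicate 1 of each age also had the highest summed neutrophil and monocyte markers (377 and 295 normalized CPM), and the part of those cells was not tested. Summed over all 45 genes the level was 848 ± 55.1 normalized CPM in the younger and 854 ± 13.1 in the older mice (SD, n = 3 each), so the summed level differed by less than the spread between mice. The mitotic genes are a small part of that sum, with means of 32.8 at 5 weeks and 44.5 at 24 weeks. The D cyclins and their kinases gave 324 and 373, the helicase and clamp genes 195 and 168, and the CDK inhibitors 135 and 102. Similar totals thus hold role sums that differed in opposite directions, and these sums were not tested. The sums of the CDK inhibitors overlapped between the ages, and most genes of these roles did not pass.

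Some sets of markers of other cells in the CD11b fraction moved with age beside these results. Over all genes tested, 15.5% were higher and 13.3% lower. Summed microglia markers had 28244 to 32192 normalized CPM at 5 weeks and 23775 to 26435 at 24 weeks (1 of 10 higher, 3 lower). Endothelial markers rose in 10 of 12 genes (396 to 431 against 760 to 808) and mural markers in 6 of 8 (148 to 182 against 278 to 306). Border-associated macrophage markers fell in 7 of 8 (1031 to 1362 against 529 to 634). Neutrophil and monocyte markers had 0 higher and 1 lower of 13 tested. Their sum was 377, 162 and 274 normalized CPM at 5 weeks and 295, 112 and 240 at 24 weeks. Within each age this sum had the same order of libraries as Mki67, which was at 8.85, 7.57 and 8.36 normalized CPM at 5 weeks and 30.7, 19.2 and 22.0 at 24 weeks. Between the ages the sums overlapped and the Mki67 levels did not. Of the remaining markers tested, 1 of 5 for neural progenitors and neuroblasts, 1 of 6 for oligodendrocyte precursors, 2 of 8 for neurons and 1 of 6 for choroid plexus and ependyma were higher, and 1 for precursors, 2 for neurons, 4 of 7 for oligodendrocytes, 3 of 8 for astrocytes and 1 of 5 for T, NK and B cells were lower, with 0 of 6 for erythroid cells. In sets this small, a single call is close to the shares over all genes. No marker gene was at 0 in every library, and the part of these cells in the cell cycle results was not tested.

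Transcript length also moved with the fold changes. Spearman's rho of log2 fold change on the longest transcript was 0.27 over the 43 tested cell cycle genes and 0.33 over 15959 genes, as a description across genes that share libraries and are not replicates. Once length and GC trends were taken out, 5 of the 45 were higher and 3 lower (2613 and 2794 over all genes). Mki67, Tk1, Cenpe, Kif23, Stmn1 and Cdkn2c passed in that fit too.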

How the data were processed

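RNA-seq was done on CD11b-selected microglia of 6 WT female mice. The authors deposited unnormalized counts of read pairs, as whole numbers for 38924 Ensembl genes in each library's table. Per the study's methods and its processing notes, the authors trimmed the reads, ran TopHat2 2.0.13 against GRCm38 and counted pairs placed once on exons of Ensembl release 75 models with HTSeq 0.6.1 on the reverse strand, while DESeq2 1.6.3 served the study's own Het comparison. The 5 rows that name no gene were left out. Among uniquely placed pairs, 40.0% to 41.8% at 5 weeks and 48.7% to 54.9% at 24 weeks fell on no exon, without overlap. On several genes fell 1.37% to 1.54% at 5 weeks and 0.996% to 1.13% at 24 weeks. Of all entries counted, those placed more than once were 32.7% to 35.5% at 5 weeks and 22.5% to 23.5% at 24 weeks. The part of these differences in the fold changes was not tested.

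Symbols and lengths came from GENCODE release 21, which matched 37607 identifiers, and promoters from RefSeq (GRCm38.p6). A level per kilobase divides by the longest coding transcript. Ages were tested with edgeR 4.0.16 under R 4.3.3 (TMM, default filter by age, quasi-likelihood fit on age alone, Benjamini-Hochberg adjustment over all genes). The SE is the log2 fold change over the square root of F. The test was checked on simulated counts. Alternatives were DESeq2 size factors, total counts, DESeq2 1.42.0, limma-voom (limma 3.58.1), other filters, each library left out, the replicate number as a block, 5-week libraries thinned to 12755262 counts, and length and GC trends removed.

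The members and lists were chosen with earlier results of these data known. All 45 members are named, and of each further list up to 3 genes higher and 3 lower with the smallest p among those that passed.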

Additional observations from a re-analysis of the deposited data

How the results depend on the processing

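No cell cycle gene that passed turned its direction under any of the 15 alternatives. Against 5 higher and 2 lower members in the analysis as reported, total counts gave 9 higher, no filter on low counts gave 8 higher and 4 lower, a minimum of 50 counts in every library gave 2 higher on 21 members tested, and DESeq2 size factors and the DESeq2 test each gave 4 lower. Over all genes, no filter gave 2558 higher and 2591 lower, and the minimum of 50 counts gave 2016 and 1900. DESeq2 size factors gave 2436 higher and 2174 lower over all genes, and the DESeq2 test 2378 and 2278. Total counts gave 3229 and 1466, so the share of passing genes that were higher went from 53.9% to 68.8%. Leaving out 1 library at a time gave 4 to 6 members higher and 1 to 5 lower. The lower count was 5 without 5-week replicate 3 and 1 without 5-week replicate 1, 24-week replicate 1 or 24-week replicate 2. Over all genes, the same fits called 1638 to 3225 higher and 1181 to 2817 lower, against 2505 and 2141 with all libraries. Both of these counts were highest without 5-week replicate 3. For the 127 further genes, against 14 higher and 7 lower, the minimum of 50 counts gave 7 higher, and leaving out 1 library gave 7 to 17 higher and 3 to 11 lower. The higher count was 7 without 5-week replicate 1, 24-week replicate 1 or 24-week replicate 2 and 8 without 5-week replicate 2, and the lower count was 11 without 5-week replicate 3 and 3 or 4 without 5-week replicate 1 or any 24-week library. Markers of other cells, 21 higher and 19 lower, gave 17 to 23 higher and 12 to 26 lower, with 12 without 24-week replicate 1. The cause of the differences in counts was not tested. The stricter filter also tested fewer genes. Leaving out a library leaves fewer samples, yet calls over all genes rose without 5-week replicate 3. Same-numbered libraries of the ages showed correlations of 0.06, 0.10 and -0.05, so the numbers were not taken as pairs. A fit with the replicate block gave 7 higher and 2 lower members, and 2424 higher and 1951 lower over all genes. Depth limits the faint genes, and 14 of the 45 members, in the mitotic and other roles, lie under 2 normalized CPM.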
